A study of Mus musculus with 6 samples.

Results

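Fibro-adipogenic progenitor marker genes were examined in the tibialis anterior (TA) muscle of C57BL/6 mice in which the clock gene Bmal1 had been deleted from skeletal muscle. The 10 genes were taken by symbol as markers of the stromal cells between muscle fibres, leaving aside the core matrix genes. They are Pdgfra, Pi16, Dpp4, Dpt, Gsn, Clec3b, Smoc2, Cxcl14, Ly6a and Tcf7l2, out of 55401 gene identifiers in the count table, and 10 of 10 passed the filter on low counts. RNA from whole TA was sequenced after ribosomal RNA removal in 6 libraries. Muscles had been injected with an adeno-associated virus (AAV) carrying either the green fluorescent protein gene (AAV-GFP, n = 3) or the splicing factor gene Rbm20 (AAV-RBM20, n = 3).

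Both groups carried the same genotype, given as iMSBmal1fl/fl and HSA-MCM-Bmal1-/- in the labels, so no muscle with intact Bmal1 was compared. Cre in this line is driven by the human skeletal actin promoter and acts in muscle fibres, which leaves Bmal1 in the stromal cells outside the reach of the deletion. All mice received tamoxifen at 2 mg per day for 5 days, starting at 12 to 16 weeks of age. AAV was injected 4 weeks later and muscle was collected after another 4 weeks. Per the methods of the study, the Rbm20 cDNA was driven by a CMV promoter and its vector was injected in larger amount than the GFP one. Vector amount and transgene therefore cannot be told apart. Nothing in the labels says what the replicate numbers stand for or whether the muscles came from separate mice, so p-values measure the spread between these libraries, which may be technical. The sample list of the study's protein blots gives some mice with both vectors, GFP marked R and Rbm20 marked L. Whether any of these libraries came from such mice is not given, and the reported fit was not paired.

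Fibro-adipogenic progenitors are mesenchymal cells that lie between muscle fibres, outside the basal lamina. They produce much of the interstitial matrix, supply signals to muscle stem cells after injury, and can turn into fat cells or matrix-producing fibroblasts when regeneration fails. The receptor tyrosine kinase PDGFRα defines them in mouse muscle. Pi16 and Dpp4 are best known from a progenitor-like fibroblast state found in many tissues, and Smoc2 and Cxcl14 from a further fibroblast state of muscle. Several of the genes are not private to these cells. Gsn is also made by muscle cells, Ly6a by endothelial cells, and Tcf7l2 by many cell types. In RNA from whole muscle, fewer cells of a type and less RNA per cell cannot be told apart.

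Libraries held 41400132 to 54226618 counts, and the 10 genes received 17561 to 49665 of them per library. Rbm20 was at 164 to 170.0 CPM (counts scaled to a common library size by the trimmed mean of M-values, TMM) in AAV-GFP and at 406 to 545 CPM in AAV-RBM20, and the groups did not overlap, with a log2 fold change of 1.54 ± 0.15 (SE; edgeR adjusted p = 0.121). The gene carried by the vector thus did not pass the threshold in this fit, and passed with the replicate block (edgeR adjusted p = 0.0107) and without both libraries numbered 3 (edgeR adjusted p = 2.28e-06). Bmal1, listed under its symbol Arntl, lay at 31.0 to 38.1 CPM in AAV-GFP and 24.5 to 27.6 CPM in AAV-RBM20. The third library of each group stood apart from its other two. The titin gene Ttn took 4.48% of counts in AAV-GFP replicate 3 and 9.05% in AAV-RBM20 replicate 3, against 16.9% to 17.8% elsewhere. Mitochondrially encoded genes took 12.5% and 11.4% in those libraries, against 6.41% to 7.66% elsewhere. The group comparisons of the 10 genes are therefore given with and without both libraries numbered 3.

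Every one of the 10 genes was detected in each library, from 52 counts of Dpp4 in AAV-GFP replicate 2 to 31058 counts of Gsn in AAV-GFP replicate 3. Levels were compared between genes as CPM per kb of merged exon. Gsn, an actin-severing protein with a secreted form, had the highest level, with a mean of 121 CPM per kb over the 6 libraries. Cxcl14, a secreted chemokine, followed at 21.4 CPM per kb and the membrane protein gene Ly6a at 17.6. Next came Smoc2, a secreted calcium-binding matrix protein, at 13.5 CPM per kb, Clec3b, which encodes tetranectin, at 12.2, and Dpt, the collagen-binding protein dermatopontin, at 9.30. Pdgfra had a level of 3.44 CPM per kb, Tcf7l2 of 1.65, Pi16 of 1.47 and Dpp4 of 0.462. Ranges over the 6 libraries did not overlap between Gsn and Cxcl14, between Dpt and Pdgfra, or between Pdgfra and Tcf7l2. The order was held in 6 of 6 libraries for Clec3b over Dpt and for Pi16 over Dpp4 as well, although their ranges overlapped. It was held in 5 of 6 for Ly6a over Smoc2 and for Smoc2 over Clec3b, and in 4 of 6 for Cxcl14 over Ly6a and for Tcf7l2 over Pi16, so these neighbours were not separated. Exons of all annotated transcripts were merged, 10024 bases for Pdgfra, and a gene with long rarely used exons therefore appears lower on this scale.

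**Figure D1:**
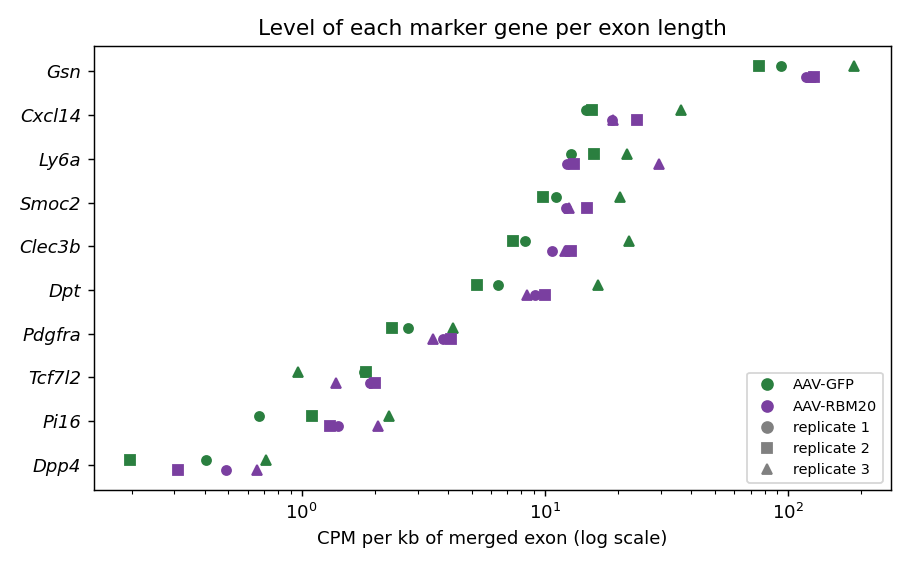
Level of each marker gene in CPM per kb of merged exon on a log axis, with 1 point per library (green, AAV-GFP; purple, AAV-RBM20; circle, square and triangle for replicates 1, 2 and 3). Gsn lies above the other genes in all 6 libraries, Dpp4 is lowest, and the triangle of AAV-GFP lies to the right of the other green points for every gene but Tcf7l2.

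The comparison of AAV-RBM20 with AAV-GFP asks how the stromal marker genes stand after Rbm20 is supplied to Bmal1-deleted muscle. None of the 10 genes passed an adjusted p of 0.05 with the quasi-likelihood test of edgeR, with Benjamini-Hochberg adjustment over the 17222 genes tested. Over all genes 0% passed, so this comparison had no calls of any kind. At an unadjusted p under 0.05, 0 of the 10 genes were higher in AAV-RBM20, against 4.08% of all genes tested. With DESeq2, 0 of 10 passed in either way, while 75 genes passed over the whole table. With the replicate number as a block, 0 of 10 passed at an adjusted p of 0.05 (0.145% of all genes, either direction) and 0 of 10 were higher at an unadjusted p under 0.05 (8.92% of all genes, higher). No gene had groups that did not overlap, against 7.71% of all genes tested that lay higher in every AAV-RBM20 library. The median log2 fold change of the 10 genes was 0.09, and that of all genes tested was 0.01.

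Pdgfra, on chromosome 5 (GRCm38, chr5:75152292-75198215, plus strand), encodes the receptor for PDGF ligands that defines the cells. Its level was 27.5, 23.6 and 41.9 CPM in AAV-GFP replicates 1, 2 and 3 and 38.3, 41.0 and 34.6 CPM in AAV-RBM20 replicates 1, 2 and 3. AAV-GFP replicate 3 was the highest of the 6 libraries and the other two AAV-GFP libraries were the lowest, so the groups overlapped through 1 library. Means were 31.0 ± 9.62 CPM without and 38.0 ± 3.23 CPM with the Rbm20 vector (SD, n = 3 each). This gave a log2 fold change of 0.29 ± 0.21 (SE; edgeR adjusted p = 0.703). Without both libraries numbered 3 it was 0.64 ± 0.09 (SE; edgeR adjusted p = 0.00369). The gene overlaps Mir7025 on its own strand and the predicted genes Gm42802 and Gm42803 on the other.

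Dpp4 and Ly6a encode proteins of the cell surface, a serine peptidase and a GPI-anchored antigen of the Ly6 family. Dpp4 (chr2:62330073-62412231, minus strand) was at 2.56, 1.25 and 4.50 CPM in AAV-GFP replicates 1 to 3 and at 3.10, 1.97 and 4.16 CPM in AAV-RBM20 replicates 1 to 3. Replicate 3 was the highest and replicate 2 the lowest in each group, and the difference was 0.15 ± 0.46 (log2, SE; edgeR adjusted p = 0.938). Leaving out both replicates 3 gave 0.43 ± 0.37 (log2, SE; edgeR adjusted p = 0.617). With 52 to 237 counts per library, Dpp4 was the least deeply counted of the 10 genes. Ly6a (chr15:74994877-74998031, minus strand) stood at 15.4, 19.2 and 26.1 CPM in AAV-GFP and at 14.9, 15.9 and 35.5 CPM in AAV-RBM20, in the order of the replicates. It was the only one of the 10 with its highest level in AAV-RBM20 replicate 3, and its lowest level was also in an AAV-RBM20 library. Its log2 fold change was 0.13 ± 0.35 (SE; edgeR adjusted p = 0.928), and −0.16 ± 0.12 (SE; edgeR adjusted p = 0.510) without both replicates 3. Of the 1311 windows of 100 bases along the Ly6a transcripts, 19 (1.45%) also occur in Ly6c1, and none of the windows of the other 9 genes occurs in another gene.

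The library with the highest Ly6a also had the highest level of interferon-stimulated genes. Ifit3 was at 6.38 CPM there against 1.37 to 2.24 CPM in the other 5 libraries. The summed level of the 10 interferon-stimulated genes was 67.8 CPM in that library and 29.2 to 35.7 CPM elsewhere. Ly6i, another gene of the Ly6 family, had 64 counts there and at most 5 in any other library. The summed level of the 9 endothelial markers was 302 CPM there, against 413 and 457 CPM in the other two AAV-RBM20 libraries. In AAV-GFP replicates 1 to 3 that sum was 413, 453 and 196 CPM. AAV-GFP replicate 3 had the highest Ly6a of its group, at 26.1 CPM, with an interferon-stimulated sum of 31.3 CPM. The part of these genes or cells in the Ly6a value was not tested.

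Secreted proteins of the progenitor-like and general fibroblast states formed the next group, with Pi16, Dpt and Clec3b. Pi16 (chr17:29317680-29330593, plus strand), which encodes a peptidase inhibitor, was measured at 4.23, 7.04 and 14.5 CPM in AAV-GFP replicates 1 to 3 and at 8.98, 8.33 and 13.1 CPM in AAV-RBM20. The groups overlapped, with every AAV-RBM20 library above AAV-GFP replicates 1 and 2 and below AAV-GFP replicate 3. The difference on the log2 scale was 0.24 ± 0.41 (SE; edgeR adjusted p = 0.875), and 0.63 ± 0.23 (SE; edgeR adjusted p = 0.211) without both replicates 3. Dpt (chr1:164796644-164824266, plus strand) had 11.0, 9.06 and 28.5 CPM in AAV-GFP and 15.7, 17.3 and 14.6 CPM in AAV-RBM20. The 3 AAV-RBM20 libraries lay close together and all between AAV-GFP replicate 1 and replicate 3. Means were nearly equal, at 16.2 ± 10.7 CPM in AAV-GFP and 15.9 ± 1.35 CPM in AAV-RBM20 (SD, n = 3 each), which gave a log2 difference of −0.03 ± 0.39 (SE; edgeR adjusted p = 0.985). When both replicates 3 were left out it was 0.72 ± 0.12 (SE; edgeR adjusted p = 0.00819). Clec3b (chr9:123150946-123157432, plus strand) showed the same layout, with 8.24, 7.36 and 22.0 CPM in AAV-GFP and 10.6, 12.6 and 12.0 CPM in AAV-RBM20. On the log2 scale the difference was −0.10 ± 0.39 (SE; edgeR adjusted p = 0.953) over 6 libraries and 0.58 ± 0.13 (SE; edgeR adjusted p = 0.0317) over the 4.

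Smoc2 and Cxcl14 mark a further fibroblast state of muscle and both code for secreted proteins. Smoc2 (chr17:14279506-14404790, plus strand) was at 77.2, 68.2 and 141 CPM in AAV-GFP replicates 1 to 3 and at 85.1, 104 and 87.5 CPM in AAV-RBM20 replicates 1 to 3. Cxcl14 (chr13:56288643-56296551, minus strand) was at 27.0, 28.4 and 66.3 CPM in AAV-GFP and at 34.6, 43.7 and 34.8 CPM in AAV-RBM20. For both genes every AAV-RBM20 library lay above AAV-GFP replicates 1 and 2 and below AAV-GFP replicate 3. Smoc2 had a log2 fold change of −0.05 ± 0.27 (SE; edgeR adjusted p = 0.962), which became 0.38 ± 0.11 (SE; edgeR adjusted p = 0.103) without both replicates 3. Cxcl14 had one of −0.11 ± 0.34 (SE; edgeR adjusted p = 0.937), which became 0.50 ± 0.11 (SE; edgeR adjusted p = 0.0452). Cxcl14 thus passed the threshold in the 4 libraries and Smoc2 did not.

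Gsn and Tcf7l2 act mainly inside the cell, Gsn on actin filaments and Tcf7l2 as the DNA-binding partner of β-catenin in Wnt signalling. Gsn (chr2:35256380-35307892, plus strand) was at 294, 240 and 590 CPM in AAV-GFP replicates 1 to 3 and at 375, 402 and 392 CPM in AAV-RBM20 replicates 1 to 3. The AAV-RBM20 libraries were the most alike for this gene, with a coefficient of variation of 3.51%, against 50.3% in AAV-GFP. The gene's log2 fold change was 0.06 ± 0.31 (SE; edgeR adjusted p = 0.966), and 0.55 ± 0.09 (SE; edgeR adjusted p = 0.0176) without both replicates 3. Tcf7l2 (chr19:55741820-55933654, plus strand) was at 15.9, 16.1 and 8.47 CPM in AAV-GFP and at 16.7, 17.5 and 12.2 CPM in AAV-RBM20. In contrast to the other 9 genes, its lowest level was in AAV-GFP replicate 3, and replicate 3 was the lowest library of each group. The log2 fold change of Tcf7l2 was 0.20 ± 0.26 (SE; edgeR adjusted p = 0.833), and 0.10 ± 0.09 (SE; edgeR adjusted p = 0.617) over the 4 libraries.

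**Figure D2:**
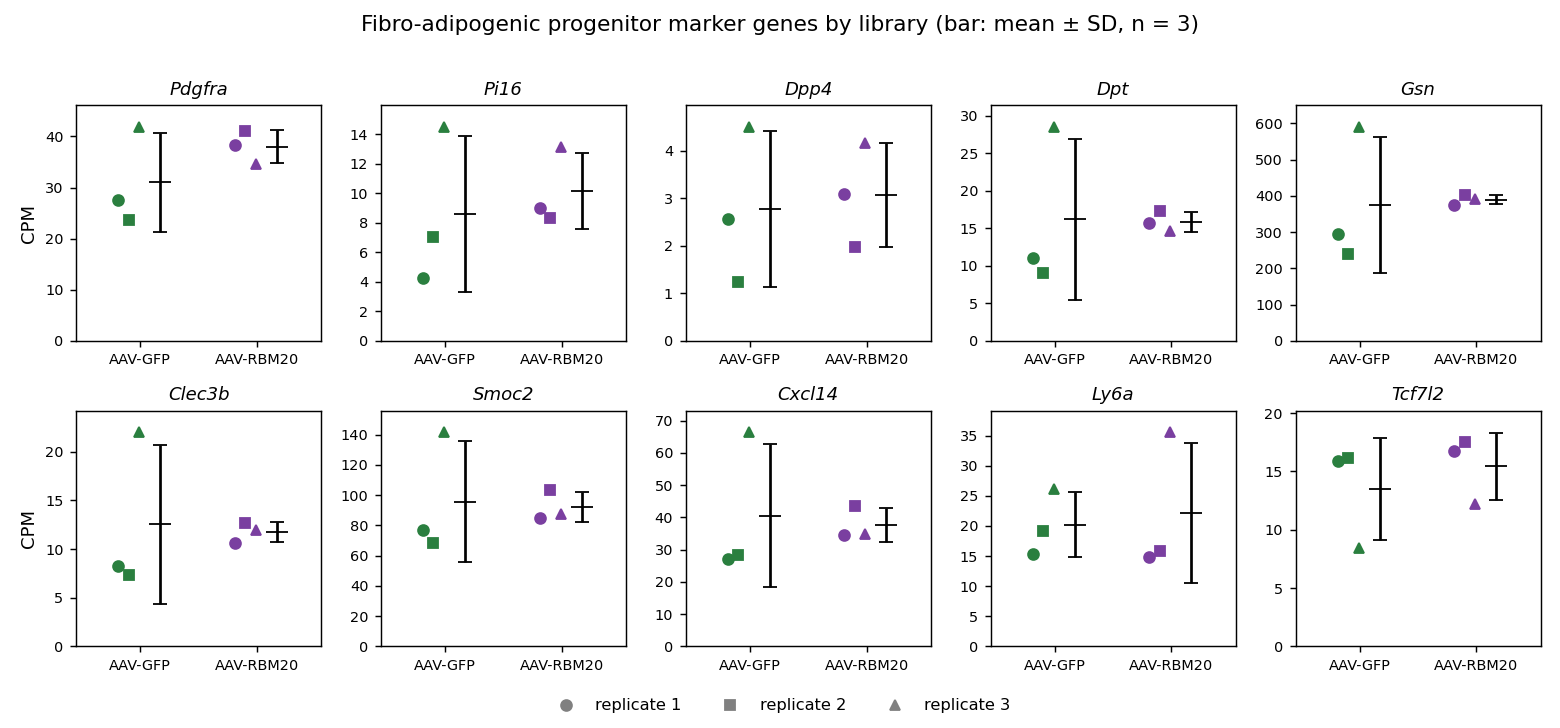
CPM of the 10 marker genes in each library, with 1 point per library and a black bar for the mean ± SD of each group (n = 3). AAV-GFP replicate 3 (green triangle) is the highest of the 6 libraries for 8 genes, Ly6a is highest in AAV-RBM20 replicate 3, and Tcf7l2 is lowest in AAV-GFP replicate 3.

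AAV-GFP replicate 3 was the highest of the 6 libraries for 8 of the 10 genes, all but Ly6a and Tcf7l2, and for 32.6% of all genes tested. It exceeded the mean of the other two AAV-GFP libraries 2.84-fold for Dpt, 2.82-fold for Clec3b, 2.57-fold for Pi16, 2.39-fold for Cxcl14, 2.37-fold for Dpp4 and 2.21-fold for Gsn. These 6 of 10 genes reached at least 2-fold, against 4.81% of all genes tested. For Smoc2 the ratio was 1.94, for Pdgfra 1.64, for Ly6a 1.51 and for Tcf7l2 0.529. The same ratio within AAV-RBM20 ran from 0.712 for Tcf7l2 to 2.31 for Ly6a, and lay between 0.872 and 1.03 for Pdgfra, Dpt, Gsn, Clec3b, Smoc2 and Cxcl14. Pi16 and Dpp4 had ratios of 1.52 and 1.64, with Dpp4 at 79 to 202 counts in AAV-RBM20. The coefficient of variation was larger in AAV-GFP than in AAV-RBM20 for 9 of 10 genes, with 66.0% against 8.52% for Dpt. Ly6a was the exception, at 26.8% in AAV-GFP and 52.6% in AAV-RBM20. The share of all genes tested that varied more in AAV-GFP was not computed. The larger spread is therefore not read as particular to the marker genes.

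Libraries of the same replicate number were set side by side. Their deviations from the group means went together over all genes. Pearson r across 17222 genes was 0.42, 0.20 and 0.48 for numbers 1, 2 and 3. For crossed numbers, r was 0.22 (2 in AAV-GFP, 1 in AAV-RBM20) and 0.13 (1 in AAV-GFP, 2 in AAV-RBM20). Crosses with a library numbered 3 gave −0.42 to −0.22. Deviations cancel out within a group, so outlying libraries numbered 3 alone would make the others go together. The r at numbers 1 and 2 therefore cannot decide how these libraries pair. At number 1, 9 of 10 genes were higher in AAV-RBM20, and so were 9 of 10 at number 2. At number 3 only 2 of 10 were higher, Ly6a and Tcf7l2. The median log2 difference of the 10 genes was 0.36 at number 1, 0.63 at number 2 and −0.43 at number 3. For all genes tested it was 0.009, 0 and −0.003. Dpt ran from 0.93 at number 2 to −0.96 at number 3, the widest range of the 10. Pi16 had the largest single difference, 1.08 at number 1, and Dpp4 the smallest negative one at number 3, −0.11. In total 8 of 10 genes were higher in AAV-RBM20 at numbers 1 and 2 and lower at number 3, a pattern held by 10.8% of all genes tested. Ly6a had the reverse pattern, with −0.05, −0.27 and 0.45. Tcf7l2 was higher in AAV-RBM20 at all 3 numbers, by 0.07, 0.11 and 0.52 on the log2 scale, but did not pass the block fit (log2 fold change 0.23, edgeR adjusted p = 0.335).

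**Figure D3:**
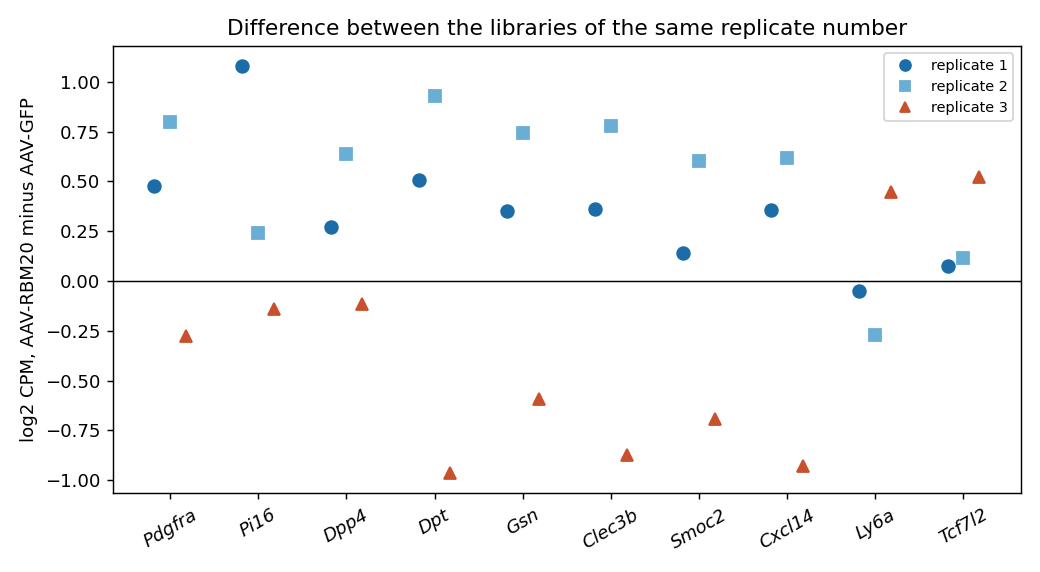
Difference in log2 CPM between the AAV-RBM20 and the AAV-GFP library of the same replicate number for each marker gene (circle, square and triangle for numbers 1, 2 and 3), with a line at no difference. For 8 genes the points of numbers 1 and 2 lie above the line and that of number 3 below it, Ly6a shows the reverse and all 3 points of Tcf7l2 lie above it.

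Without both libraries numbered 3, 5 of the 10 genes were higher in AAV-RBM20 at an edgeR adjusted p of 0.05, against 1.95% of all genes tested. They were Pdgfra, Dpt, Gsn, Clec3b and Cxcl14, each with a log2 fold change between 0.50 and 0.72. The other 5 did not pass, and Ly6a had the only negative value. In the same fit 7 of 10 macrophage markers were higher at an edgeR adjusted p of 0.05, with a median log2 fold change of 1.04 against 0.53 for the marker genes, and their part in the values of the 10 genes was not tested. This fit holds 2 libraries per group. Leaving out AAV-GFP replicate 3 alone gave 0 of 10 genes at an edgeR adjusted p of 0.05 (0% of all genes) and 7 of 10 higher at an unadjusted p under 0.05 (7.1% of all genes, higher), with a median log2 fold change of 0.56. With the block the median was 0.16 and the log2 fold change was above 0 for all 10 genes, from 0.02 for Cxcl14 to 0.37 for Pi16. In a two-sided exact permutation test over the 6 libraries, single genes gave p from 0.4 for Pdgfra to 1 for Clec3b, Smoc2 and Cxcl14, where 0.1 is the smallest value that 3 against 3 libraries allow.

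Ratios within a library show how far the genes varied together. Relative to Pdgfra, on the CPM per kb scale, Gsn varied least, from 31.1 to 44.7 over the 6 libraries, and Smoc2 from 3.20 to 4.87. Cxcl14 ranged from 4.95 to 8.69, Dpt from 2.23 to 3.96 and Clec3b from 2.79 to 5.30. All 5 of these ratios were highest in AAV-GFP replicate 3, so that library exceeded the others by more for them than for Pdgfra. Pi16 ranged from 0.242 to 0.598 and Dpp4 from 0.0760 to 0.191, both with their highest ratio in AAV-RBM20 replicate 3. Ly6a relative to Pdgfra ranged from 3.23 to 8.54, and Tcf7l2 from 0.231 to 0.782, a 3.38-fold range that was the widest of the 9.

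Promoter sequence from RefSeq (GRCm38.p6), running from 250 bases before to 50 bases after a gene start, was held for 7 of the 10 genes, with 10 windows in all. Windows are shown for the receptor that defines the cells, for the gene with the widest range between replicate numbers, and for the gene that ran against the others, each 5′ to 3′ on the strand of the gene, with TATAAA in capitals.
Pdgfra, chr5:75152001-75152300, plus strand: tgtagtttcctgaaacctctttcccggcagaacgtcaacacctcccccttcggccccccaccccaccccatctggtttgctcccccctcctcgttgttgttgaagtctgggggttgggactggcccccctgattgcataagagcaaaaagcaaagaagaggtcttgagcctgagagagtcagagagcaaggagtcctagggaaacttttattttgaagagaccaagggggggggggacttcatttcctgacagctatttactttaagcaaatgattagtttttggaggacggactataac
Dpt, chr1:164796413-164796712, plus strand: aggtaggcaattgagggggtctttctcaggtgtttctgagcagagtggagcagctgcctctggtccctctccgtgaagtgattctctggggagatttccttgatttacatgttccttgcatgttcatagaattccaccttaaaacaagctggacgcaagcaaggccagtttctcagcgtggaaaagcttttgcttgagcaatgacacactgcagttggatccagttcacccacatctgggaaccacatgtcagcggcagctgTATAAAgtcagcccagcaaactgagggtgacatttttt
Tcf7l2, chr19:55741560-55741859, plus strand: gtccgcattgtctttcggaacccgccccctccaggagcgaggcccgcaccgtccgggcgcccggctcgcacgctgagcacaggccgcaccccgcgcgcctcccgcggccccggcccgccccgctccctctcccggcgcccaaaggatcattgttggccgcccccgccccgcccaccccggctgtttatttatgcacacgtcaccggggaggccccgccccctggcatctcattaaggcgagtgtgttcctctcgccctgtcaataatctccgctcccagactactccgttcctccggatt
The window of Tcf7l2 had 70% G and C, that of Pdgfra 51% and that of Dpt 48.7%. TATAAA, searched on both strands, occurred in 3 of the 10 windows, 1 each of Dpt, Dpp4 and Tcf7l2 (a second window, not shown), against 13.6% of all 32851 promoter windows. In Dpt it began 12 bases after the annotated start and in Dpp4 227 bases before it. CACGTG, the E-box bound by clock activators, was in 0 of the 10 windows and in 7.15% of all windows, and CTTTGAT, the motif of TCF factors, in 0 of 10 and in 3.73% of all. These are matches of letters in the windows only.

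Other genes of the same cells and of the pathways of Pdgfra, Tcf7l2 and Ly6a were read from the same fit, and 0 of them passed an adjusted p of 0.05 with or without the block over all 6 libraries. Among 27 tested genes of muscle interstitial fibroblasts, the median log2 fold change was 0.12, and 0.34 without both libraries numbered 3. In those 4 libraries 5 of the 27 were higher at an edgeR adjusted p of 0.05, against 1.95% of all genes tested. The 5 were Cd34, Islr, Scara5, Svep1 and Mme, and Sema3c was lower. Cd34, a sialomucin also found on endothelial cells, had a log2 fold change of 0.32 ± 0.15 (SE; edgeR adjusted p = 0.641) in all 6 libraries, and the transcription factor gene Twist2 one of 0.76 ± 0.36 (SE; edgeR adjusted p = 0.641). AAV-GFP replicate 3 was the highest library for 16 of the 27, beside 8 of the 10 marker genes and 32.6% of all genes tested.

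For the 18 core matrix genes, which the same cells produce, the median difference was 0.38 (log2), and 0.65 without both libraries numbered 3. All 18 had a positive log2 fold change, as had 8829 of all 17222 genes tested. In the 4 libraries 14 were higher at an edgeR adjusted p of 0.05, against 1.95% of all genes tested. Col3a1, Dcn and Sparc were among the 14. Col1a1 was at 159 to 255 CPM in AAV-GFP and at 203 to 412 CPM in AAV-RBM20 (log2 fold change 0.74 ± 0.29, SE; edgeR adjusted p = 0.618). Sparc, a collagen-binding matricellular protein, was at 119 to 157 CPM in AAV-GFP and at 160 to 181 CPM in AAV-RBM20, with groups that did not overlap (0.35 ± 0.15, log2, SE; edgeR adjusted p = 0.637). At number 3 the log2 difference was 0.69 for Col1a1 and 0.03 for Sparc.

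PDGF ligands and the remaining receptor genes (6 tested) had a median of 0.14 (log2 fold change), and Pdgfrl (0.52) and Pdgfc (0.44) had the smallest unadjusted p of that list. For 11 tested TCF/LEF factors, cofactors and Wnt feedback genes the median was −0.06. Axin2, a feedback gene of Wnt signalling, was at 7.77 to 11.0 CPM in AAV-GFP and 11.8 to 12.7 CPM in AAV-RBM20 (0.47 ± 0.17, log2, SE; edgeR adjusted p = 0.618), and Rnf43, another one, had a log2 fold change of −0.81 ± 0.41 (SE; edgeR adjusted p = 0.654). Only 3 other Ly6 genes passed the filter, with a median of −0.03, including Ly6e (0.08) and Lynx1 (−0.06). Among 15 relatives of the marker genes by family the median was −0.03, with 1.17 for Glipr1 and 0.70 for Tcf7. For 8 genes of fibroblast activation it was 0.53, with 1.73 ± 0.58 for Timp1 (SE; edgeR adjusted p = 0.618) and 0.74 for Adam12, and 0.07 without both libraries numbered 3. For the 10 interferon-stimulated genes it was 0.32, with 0.80 for Ifit3, and 0.0002 without both libraries numbered 3.

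**Figure D4:**
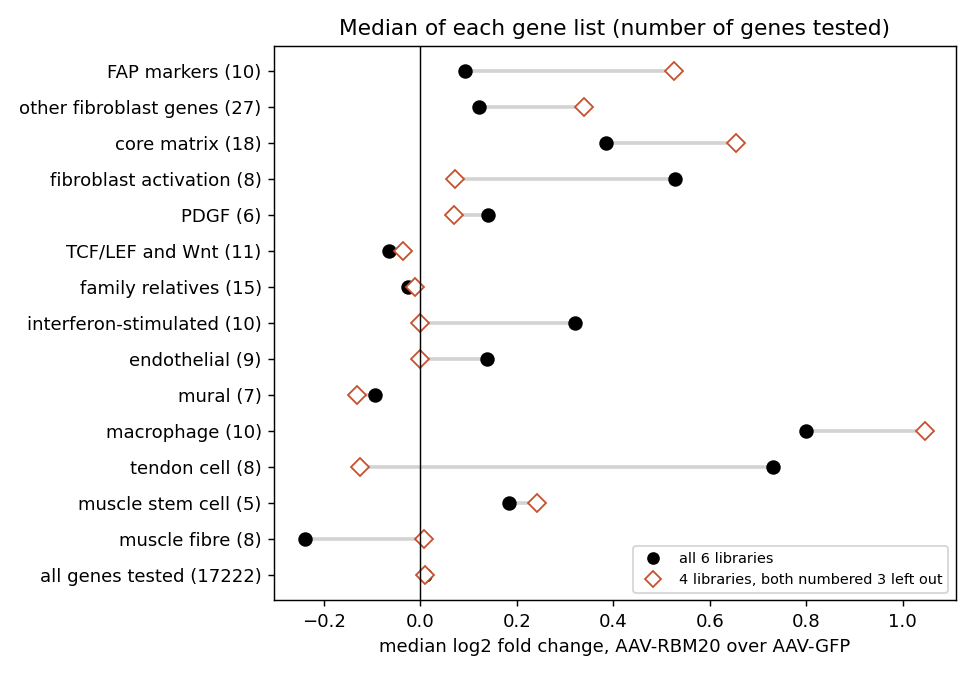
Median log2 fold change of AAV-RBM20 over AAV-GFP for the gene lists shown, with all 6 libraries (filled circles) and without both libraries numbered 3 (open diamonds), and the number of genes tested in parentheses. The Ly6, adipocyte, lymphocyte, Schwann cell and red blood cell lists are not drawn. The median of the marker genes moves from 0.09 to 0.53 and that of the core matrix genes from 0.38 to 0.65, while that of all genes stays at 0.01.

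Markers of the other cells of muscle were read beside these values, as sums of CPM over each list. The 10 macrophage markers summed to 35.2, 33.0 and 110 CPM in AAV-GFP replicates 1 to 3 and to 77.6, 69.5 and 148 CPM in AAV-RBM20, an order of the AAV-GFP libraries like that of the marker genes. With the replicate block 9 of the 10 were higher at an unadjusted p under 0.05 (8.92% of all genes, higher). At an edgeR adjusted p of 0.05 over all 6 libraries, 0 of the 10 macrophage markers passed with the block (0.145% of all genes) or without it (0%). Without both libraries numbered 3, 7 of the 10 were higher at that threshold (1.95% of all genes, higher). The 9 endothelial markers ran the other way, at 413, 453 and 196 CPM in AAV-GFP and 457, 413 and 302 CPM in AAV-RBM20. Sums of the 8 muscle fibre markers lay between 115772 and 126657 CPM in AAV-GFP and between 75796 and 118709 CPM in AAV-RBM20, lowest in AAV-RBM20 replicate 3. Tendon cell markers ranged from 83.0 to 123 CPM in AAV-GFP and from 30.5 to 221 CPM in AAV-RBM20, adipocyte markers from 65.3 to 88.8 and from 59.7 to 83.5, and markers of pericytes and smooth muscle from 883 to 1042 and from 892 to 962. Adipoq, which defines fat cells, was at 0 counts in replicate 1 of both groups and at 1.80 CPM in AAV-GFP replicate 3. The 6 adipocyte markers tested had a median log2 fold change of −0.51, with 1 of the 6 above 0. Without both libraries numbered 3 the adipocyte median was −0.24. Muscle stem cell markers summed to 13.3 to 16.6 CPM in AAV-GFP and 14.5 to 20.1 CPM in AAV-RBM20, Schwann cell markers to 14.4 to 41.4 and 18.3 to 32.7, red blood cell markers to 4.06 to 10.6 and 2.69 to 27.3, and lymphocyte markers to 0.467 to 1.39 and 0.871 to 5.81. The part of these cells in the values of the 10 genes was not tested.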

How the data were processed

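Whole TA muscle was sequenced in 3 AAV-GFP and 3 AAV-RBM20 libraries, grouped from the labels, with replicate numbers from the titles. The authors prepared stranded libraries with ribosomal RNA removed, aligned the read pairs with HISAT2 (mm10) and obtained counts per Ensembl gene from HTSeq (versions, annotation and strand setting not given in the sources used here). The deposited counts are raw whole numbers. Pdgfra, Pi16, Dpp4, Dpt, Gsn, Smoc2 and Tcf7l2 overlap another annotated gene. Because the strand setting is not given, their values may lack reads that fall on both genes or hold reads of the other. A second table, counts divided by size factors, was not used. Totals were 41400132 to 54226618 counts per library.

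Of 55401 identifiers, 55141 matched a GENCODE M21 symbol, 29747 had counts and 17222 passed filterByExpr. AAV-RBM20 was tested against AAV-GFP by quasi-likelihood in edgeR 4.0.16 under R 4.3.3 (TMM factors, robust, no covariate), with Benjamini-Hochberg adjustment over all genes tested and a threshold of 0.05. The SE was the size of the log2 fold change divided by the root of F. Log2 CPM used a prior count of 2. The chi-square per degree of freedom between libraries of a group was 15.1 to 545, so none was a copy of another. The script was tested on simulated data.

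Same-numbered libraries deviated together (r = 0.42, 0.20 and 0.48), each above 0.1. The number was therefore used as a block in an alternative fit, while the reported fit had no block. What links same-numbered libraries is not given in the labels. Crossed pairs of numbers 1 and 2 were above 0.1 too, at r = 0.22 and 0.13. The r values therefore cannot decide the pairing of these numbers. Alternatives were other scalings, filters and tools (DESeq2 1.42.0, limma-voom 3.58.1), the replicate block, and left-out libraries. Genes outside the 10 were named as the 2 of each list with the smallest unadjusted p, besides Rbm20 and Bmal1, except 1 gene that is not reported here, and any other name was picked with its values known. The 10 genes and all lists were chosen with earlier results of these data known.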

Additional observations from a re-analysis of the deposited data

How the results depend on the processing

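No marker gene passed the threshold in the 15 alternatives other than the one without both libraries numbered 3, in which 5 passed. The replicate block changed no call among the 10 genes. Over all genes the count of calls was 0 in the reported fit, 8 with no filter on low counts, 25 with the replicate block, 75 with DESeq2, 520 with DESeq2 and the replicate block, and 690 without both libraries numbered 3. The median log2 fold change of the 10 genes was 0.53 without both libraries numbered 3, and ran from −0.19 to 0.56 with 1 library left out, the highest without AAV-GFP replicate 3 and the lowest without AAV-GFP replicate 2. Causes were not tested.

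Every marker gene except Pdgfra changed sign in at least 1 alternative. Dpt, at −0.03, became 0.023 with upper quartile factors, 0.0018 with a filter on CPM, 0.15 with the replicate block, 0.13 with limma-voom, 0.16 with DESeq2 and the block, and 0.72 without both libraries numbered 3. In the block, limma-voom, DESeq2 with block and 4-library fits, Clec3b became 0.075, 0.0555, 0.088 and 0.58, Smoc2 0.017, 0.019, 0.0125 and 0.38, and Cxcl14 0.016, 0.015, 0.015 and 0.50. Ly6a became −0.16 in the 4-library fit. With 1 library left out, Pdgfra kept a positive value, from 0.13 to 0.57. The other ranges were −0.092 to 0.85 for Pi16, −0.20 to 0.69 for Dpp4, −0.32 to 0.66 for Dpt, −0.18 to 0.54 for Gsn, −0.37 to 0.59 for Clec3b, −0.25 to 0.34 for Smoc2, −0.34 to 0.44 for Cxcl14, −0.39 to 0.35 for Ly6a and −0.054 to 0.35 for Tcf7l2.

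Depth limited Dpp4 most, at 52 counts in 1 library. Groups of 3 were too small to test for outlying libraries.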
